A study of Mus musculus with 3 samples.

Results

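Retinoic acid is made, broken down, carried and sensed by a small set of gene products, and 9 of those genes were followed here in the RNA polymerase II (RNAP2) and Med12 peak lists of mouse distal forelimb. They are the synthesis gene Aldh1a2, the degradation genes Cyp26a1, Cyp26b1 and Cyp26c1, the binding protein genes Crabp1 and Crabp2, and the receptor genes Rara, Rarb and Rarg. They are 9 of 22367 protein-coding genes of the GENCODE vM1 annotation (mm9). A peak was taken when it overlapped the gene or lay within 100 kb of the gene's 5′ end, and this interval is called the window of the gene. The windows held 38 of 20479 RNAP2 peaks and 11 of 10634 Med12 peaks. The stretch between the neighbouring gene Exoc6, Cyp26c1 and Cyp26a1 was included. A score is the peak caller's p-value as a negative log10, multiplied by 10, so a higher score means a smaller p-value.

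Chromatin came from distal forelimbs of wild-type mouse embryos, dissected at E12.5 according to the sample labels, while the series design text gives E11.5. The limbs were dissociated to single cells before fixation, and the strain and the number of embryos were not given in the sources used here. One ChIP-seq library was made with an antibody to RNAP2, another with an antibody to Med12, a subunit of the Mediator complex, and an input library without antibody has no peak list here. Each antibody therefore stands for 1 library and 1 condition, no value below has a replicate error, and no test between groups was possible. The lists carry no read depth for a peak, so the lack of a peak is a lack of a call and not a lack of binding. In a dissected tissue, strong binding in few cells cannot be told apart from weak binding in many cells.

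Retinoic acid is produced from retinaldehyde by Aldh1a2 and is hydroxylated and removed by the Cyp26 enzymes. Inside cells it is bound by the Crabp proteins, and it acts through retinoic acid receptors that pair with retinoid X receptors on direct repeats of a short DNA word. In the limb bud, Cyp26b1 is known for clearing retinoic acid from the distal mesenchyme, and Rarb and Cyp26a1 are known as direct targets of the receptors.

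The sequences that the results turn on come from the mm9 reference and are printed 5′ to 3′ along the strand of the gene. The DR5 response element was searched for as a direct repeat of the word AGGTCA, its variants AGTTCA or GGGTCA, or the further variant GGTTCA, in any pairing, with a spacer of 5 bases, on both strands. The 300 bases around the internal Rarb-202 start (chr14:17407937-17408236, minus strand) and the Cyp26a1 start (chr19:37772048-37772347, plus strand) are shown because each holds a match, in capitals, close to the start, and the first had both peaks whereas the second had none. The Cyp26a1 match lies on the opposite strand, where it reads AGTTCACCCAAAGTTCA, and the capitals mark its reverse complement.
Rarb internal start: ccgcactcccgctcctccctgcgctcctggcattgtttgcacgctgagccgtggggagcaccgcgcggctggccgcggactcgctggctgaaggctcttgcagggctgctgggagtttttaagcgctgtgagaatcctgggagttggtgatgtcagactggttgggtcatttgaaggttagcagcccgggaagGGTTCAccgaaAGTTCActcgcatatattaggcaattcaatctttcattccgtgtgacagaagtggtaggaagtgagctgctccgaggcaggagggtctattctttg
Cyp26a1 start: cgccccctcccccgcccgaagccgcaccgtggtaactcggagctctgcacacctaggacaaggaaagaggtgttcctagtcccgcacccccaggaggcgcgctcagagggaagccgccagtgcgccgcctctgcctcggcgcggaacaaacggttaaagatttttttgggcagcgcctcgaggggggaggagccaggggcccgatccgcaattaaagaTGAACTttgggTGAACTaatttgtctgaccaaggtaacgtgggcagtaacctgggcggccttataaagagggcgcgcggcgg

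The 200 bases at the centre of 4 overlaps between an RNAP2 and a Med12 peak inside or beside a gene are shown because those are places where both lists met away from a gene's 5′ end. They lie in an Aldh1a2 intron (chr9:71090070-71090269, plus strand), in the Rarg gene (chr15:102079347-102079546, minus strand), in a Rarb intron (chr14:17387253-17387452, minus strand) and downstream of Crabp2 (chr3:87764753-87764952, plus strand). None of these stretches of 200 bases held a DR5 match.
Aldh1a2 intron: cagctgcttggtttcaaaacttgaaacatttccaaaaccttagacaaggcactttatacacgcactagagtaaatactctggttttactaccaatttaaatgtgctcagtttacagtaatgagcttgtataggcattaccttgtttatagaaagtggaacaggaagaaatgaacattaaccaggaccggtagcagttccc
Rarg body: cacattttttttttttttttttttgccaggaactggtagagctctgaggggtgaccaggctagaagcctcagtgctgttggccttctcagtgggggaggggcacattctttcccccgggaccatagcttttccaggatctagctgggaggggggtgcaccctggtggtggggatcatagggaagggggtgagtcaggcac
Rarb intron: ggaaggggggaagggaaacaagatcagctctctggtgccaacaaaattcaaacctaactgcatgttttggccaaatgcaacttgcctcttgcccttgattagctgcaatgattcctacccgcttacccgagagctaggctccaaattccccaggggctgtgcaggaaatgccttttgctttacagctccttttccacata
Crabp2 downstream: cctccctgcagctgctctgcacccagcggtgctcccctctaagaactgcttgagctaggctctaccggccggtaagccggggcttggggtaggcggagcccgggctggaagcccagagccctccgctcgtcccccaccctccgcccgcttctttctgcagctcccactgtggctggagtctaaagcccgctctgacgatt

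The centre of the RNAP2 peak in an Exoc6 intron (chr19:37752132-37752331, plus strand) is shown because it is the only peak in the windows of Cyp26a1 and Cyp26c1, and the word CCAAGGAGAGGG, in capitals, recurs in it.
Exoc6 intron: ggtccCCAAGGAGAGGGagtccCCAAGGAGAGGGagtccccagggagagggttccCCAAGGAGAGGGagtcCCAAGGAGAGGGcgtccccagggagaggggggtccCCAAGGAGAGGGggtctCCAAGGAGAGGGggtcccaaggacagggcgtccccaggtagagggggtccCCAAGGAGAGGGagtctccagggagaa

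The 9 genes fell into those with RNAP2 at a start and those without. An RNAP2 peak lay within 1 kb of an annotated transcript start in 6 of the 9 genes, Aldh1a2, Cyp26b1, Crabp2, Rara, Rarb and Rarg, beside 42.2% of all protein-coding genes. Cyp26a1, Cyp26c1 and Crabp1 had neither a peak at a start nor a peak within the gene. Med12 lay within 1 kb of a start in 3 of 9 genes, the receptor genes Rara, Rarb and Rarg, beside 9.37% of all protein-coding genes. All 3 also had RNAP2 at a start, the same or another, beside 8.66% of protein-coding genes. Both lists met at the same start in 2 of 9, Rarb and Rarg, beside 8.45%. Of the 24 distinct transcript starts of the 9 genes, 14 had RNAP2, 3 had Med12 and 2 had both. Of the 45962 promoters of protein-coding transcripts, 41.5% had RNAP2 within 1 kb, 8.49% had Med12 and 3619 had both, so the counts of starts with Med12 and with both are near the background. The 24 starts include those of transcripts not coding for protein, which the 45962 promoters leave out, so the sets differ. Rarg-003, counted with both, is such a start.

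**Figure D1:**
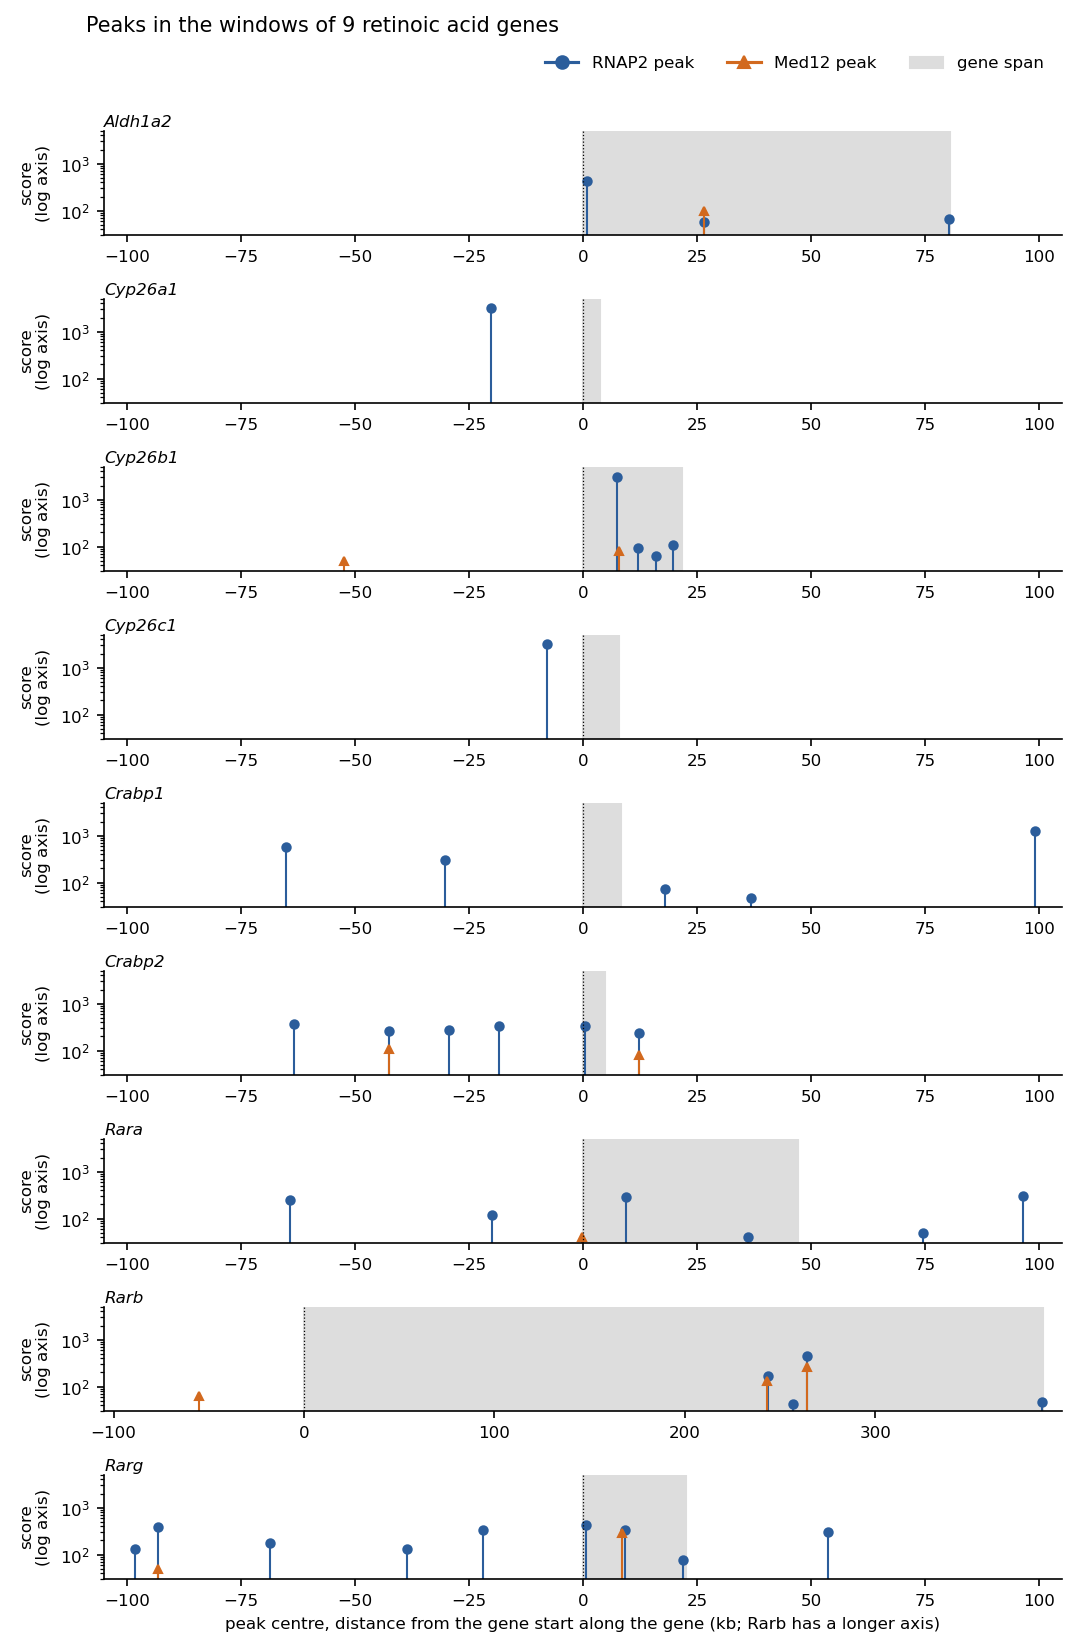
Score of each RNAP2 (circles) and Med12 (triangles) peak on a log axis against the distance of its centre from the gene start in kb, one panel per gene, with the gene span in grey. Cyp26a1 and Cyp26c1 share a lone RNAP2 peak upstream, of score 3215, whereas the tallest peak of Cyp26b1, of score 3100, lies inside the gene.

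Of the 38 RNAP2 peaks in the windows, 17 lay at a start or in the body of the 9 genes, 16 at the start of another gene, 2 in the body of another gene and 3 between genes. The corresponding counts of the 11 Med12 peaks were 6, 2, 1 and 2. RNAP2 scores ran from 40.9 to 3215 with a median of 259, beside 123 over the whole list, and Med12 scores from 40.9 to 288 with a median of 82.2, beside 56.8. The RNAP2 median includes the 16 peaks at starts of other genes, which reached 1282 at Ireb2. It therefore does not describe the peaks of the 9 genes alone, which lie on both sides of 123. A window held a median of 4 RNAP2 peaks over the 9 genes, from 1 to 9, beside 2 over all protein-coding genes, and a median of 1 Med12 peak in both.

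**Figure D2:**
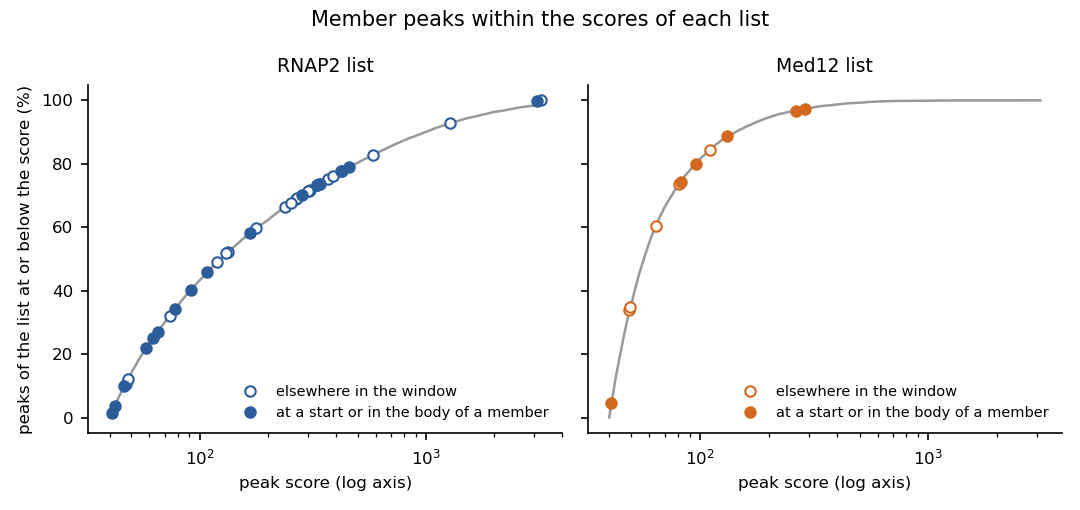
Share of each list at or below a score in % (vertical axis) against the score on a log axis, for RNAP2 on the left and Med12 on the right, with the peaks in the windows as points on the line. Filled points lie at a start or in the body of the 9 genes and reach from 40.9 to 3100 for RNAP2 and from 40.9 to 288 for Med12.

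RNAP2 and Med12 overlapped by at least 1 bp in 8 of the 38 RNAP2 peaks, which is 21.1% (Wilson 95% interval 11.1% to 36.3%), close to the 21.7% of the whole RNAP2 list. The same was true of 8 of the 11 Med12 peaks, 72.7% (43.4% to 90.3%), beside 42.7% of the whole Med12 list. These intervals cover counting error only, and peaks of one window are not independent of each other. At starts and in bodies of the 9 genes alone, 5 of 17 RNAP2 peaks and 5 of 6 Med12 peaks overlapped the other list.

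Aldh1a2, the main enzyme of retinoic acid synthesis in the early embryo, spans chr9:71063596-71144050 on the plus strand. It had an RNAP2 peak over its start (chr9:71063149-71065712, score 426), and no Med12 peak was closer to that start than 26045 bp. That Med12 peak (chr9:71089641-71090697, score 95.8) lay in an intron and overlapped an RNAP2 peak (chr9:71089393-71090805, score 57.9). Med12 had the higher score of the pair there, whereas RNAP2 had the higher score in the other 7 overlaps of the windows, although scores of different libraries are not on a common scale. A further RNAP2 peak (chr9:71143334-71144378, score 65.4) covered the 3′ end of the gene. The shared intron stretch printed above has a GC content of 38.0%.

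Cyp26b1, the degradation enzyme of the distal limb mesenchyme, had the most RNAP2 of the 9 genes along its length. It spans chr6:84521938-84543740 on the minus strand and has annotated starts at 84543740 (the outer start) and 84538632 (the inner start). A single RNAP2 peak of 6641 bp (chr6:84532985-84539625, score 3100) covered the inner start and ended 4115 bp short of the outer start, which had no peak within 1 kb. A score of 3100 was shared by 311 RNAP2 peaks and exceeded by 18, so the order of peaks at or above this score was not read as an order of strength, while the width ranked 111 of 20479. A further 3 RNAP2 peaks followed towards the 3′ end (chr6:84530672-84532810, chr6:84526978-84528419 and chr6:84522771-84525047), with scores of 91.6, 62.4 and 108. RNAP2 peaks covered 57.3% of the gene, a share reached by 2.16% of protein-coding genes.

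Med12 was called inside the wide RNAP2 peak of Cyp26b1 (chr6:84535219-84536476, score 82.2), 2156 bp from the inner start. Another Med12 peak of the window (chr6:84595694-84596696, score 49.1) lay in the body of the neighbouring gene Exoc6b and had no RNAP2 peak over it.

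The other degradation genes differed from Cyp26b1. Cyp26c1 (chr19:37760071-37767888) and Cyp26a1 (chr19:37772298-37776018) lie side by side on the plus strand, downstream of Exoc6 (chr19:37624908-37757735), which encodes a subunit of the exocyst. No peak of either list lay in Cyp26c1, in Cyp26a1 or between them, nor between Exoc6 and Cyp26c1. The only peak of their windows was the RNAP2 peak chr19:37751566-37752897 in the last part of Exoc6, 7174 bp from the Cyp26c1 start and 19401 bp from the Cyp26a1 start. Its score of 3215 was among the 18 above the value of 3100 that 311 peaks share, where the order is not read, and its width was 1332 bp beside a median of 1328 bp over the list. No Med12 peak overlapped it, and the nearest Med12 peak was 358670 bp from Cyp26c1 and 370897 bp from Cyp26a1. Exoc6 had no peak at its own start, the nearest RNAP2 peak being 111934 bp away.

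The Exoc6 peak stood on a tandem repeat. The word CCAAGGAGAGGG occurred 20 times in it, 7 of them in the printed stretch, at a median spacing of 17 bp. When each base was compared with the base a fixed distance further on, the best distance in the most repetitive 200 bases gave 79.0% identical bases, beside a median of 41.0% over the RNAP2 list. A value as high was found in 248 RNAP2 peaks, or 1.21%, and in 1 of the 18 peaks that scored above 3100, which is the Exoc6 peak itself. The other 37 RNAP2 peaks in the windows reached at most 69.5%. The study's methods say that redundant reads were removed and describe the signal tracks as uniquely mapped reads. In the alignment of the peak to the rest of the genome, 0% of its bases aligned elsewhere, with low-complexity sequence masked. Such masking may leave out the repeat itself, so this value does not show that the repeat is found only here. The word also occurred 18 times in other RNAP2 peaks of the list, counted on both strands. How many reads of this peak fit 1 place in the genome was not tested, and a call on repeated sequence cannot be told apart from RNAP2 at this site with the peak list alone.

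The binding protein genes split in the same manner as the degradation genes. Crabp2, whose product carries retinoic acid to the nuclear receptors, spans chr3:87752588-87757298 and had RNAP2 over its start (chr3:87751980-87754060, score 338) covering 31.3% of the gene, a share reached by 4.18% of protein-coding genes. Downstream of the gene, between annotated genes, an RNAP2 peak (chr3:87764112-87765387, score 237) overlapped a Med12 peak (chr3:87764317-87765487, score 80.7), the former centred 12161 bp from the Crabp2 start. No Med12 peak lay at the Crabp2 start. Another overlap in this window, at the start of Hdgf, had scores of 267 and 110. The highest RNAP2 peak of the window (chr3:87688437-87690095, score 369) lay at the start of Prcc.

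Crabp1, the other cellular retinoic acid binding protein, spans chr9:54612555-54620917 and had no peak at its start or in its body. The nearest RNAP2 peak (chr9:54629907-54631010, score 73.8) lay 17352 bp from its start between genes, and the nearest Med12 peak lay outside the window at 113550 bp. The window was not empty, since it held 5 RNAP2 peaks. The highest was at the start of Ireb2, with a score of 1282, and others were at the starts of Dnaja4 and Wdr61, with scores of 586 and 308.

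Each of the 3 receptor genes had RNAP2 and Med12 at starts, but in a different arrangement. Rara (chr11:98789132-98836256, plus strand) had the lists at separate starts. Its most upstream start, Rara-003, had Med12 (chr11:98788494-98789332, score 40.9) and no RNAP2 within 7997 bp. RNAP2 (chr11:98797129-98800171, score 284) covered the starts of Rara-002, Rara-001 and Rara-005 further into the gene, where no Med12 peak was called. A weak RNAP2 peak (chr11:98824518-98826190, score 40.9) reached the Rara-202 start. The lowest score in either list was 40, so the Med12 peak and the weaker RNAP2 peak of Rara sit at the bottom of their lists. The highest RNAP2 peak of the window (chr11:98884969-98886087, score 303) lay at a start of Top2a. Part of that Med12 peak of Rara, 16.8% of its bases, aligned elsewhere in the genome at 95% identity or more.

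Rarb (chr14:17263356-17651381, minus strand), the receptor gene known to be induced by its own ligand, had both lists at an internal start and nothing at its outermost start. The Rarb-202 start at 17407986 had RNAP2 (chr14:17407188-17408731, score 167) and Med12 (chr14:17407695-17408540, score 132). The start shared by Rarb-201 and Rarb-203 at 17651381 had neither, the nearest RNAP2 peak being 135683 bp away and the nearest Med12 peak (chr14:17706217-17706741, score 64.2) 54836 bp upstream. Within an intron downstream of Rarb-202, a pair of higher score was called, RNAP2 at chr14:17386510-17388239 with a score of 458 and Med12 at chr14:17386632-17388073 with a score of 262. That Med12 peak ranked 348 of 10634, and it lay 19913 bp from the Rarb-202 start. RNAP2 was also called between the pair and the start (chr14:17394002-17394814, score 42.1) and at the 3′ end (chr14:17263155-17264200, score 46.5), where the annotation of Top2b also reaches.

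Rarg (chr15:102065369-102087948, minus strand), the receptor gene associated with cartilage condensations, had the broadest peaks of the receptor genes. An RNAP2 peak of 4014 bp (chr15:102085229-102089242, score 422) covered the starts of Rarg-001 and Rarg-006, without Med12. A further RNAP2 peak of 3917 bp (chr15:102076755-102080671, score 331) lay inside the gene and overlapped the highest Med12 peak of all windows (chr15:102078317-102080576, score 288). That Med12 peak was 2260 bp wide and ranked 289 of 10634 by score and 103 by width. It lay 201 bp from the start of Rarg-003, a transcript annotated as not coding for protein, and 1386 bp from the start of the coding transcript Rarg-002, so Rarg counts as having Med12 at a start only through Rarg-003. A last RNAP2 peak (chr15:102065153-102067101, score 77.8) covered the 3′ end, and 3.75% of its bases aligned elsewhere in the genome. RNAP2 peaks covered 37.1% of Rarg, 10.0% of Rara and 1.27% of the much longer Rarb.

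**Figure D3:**
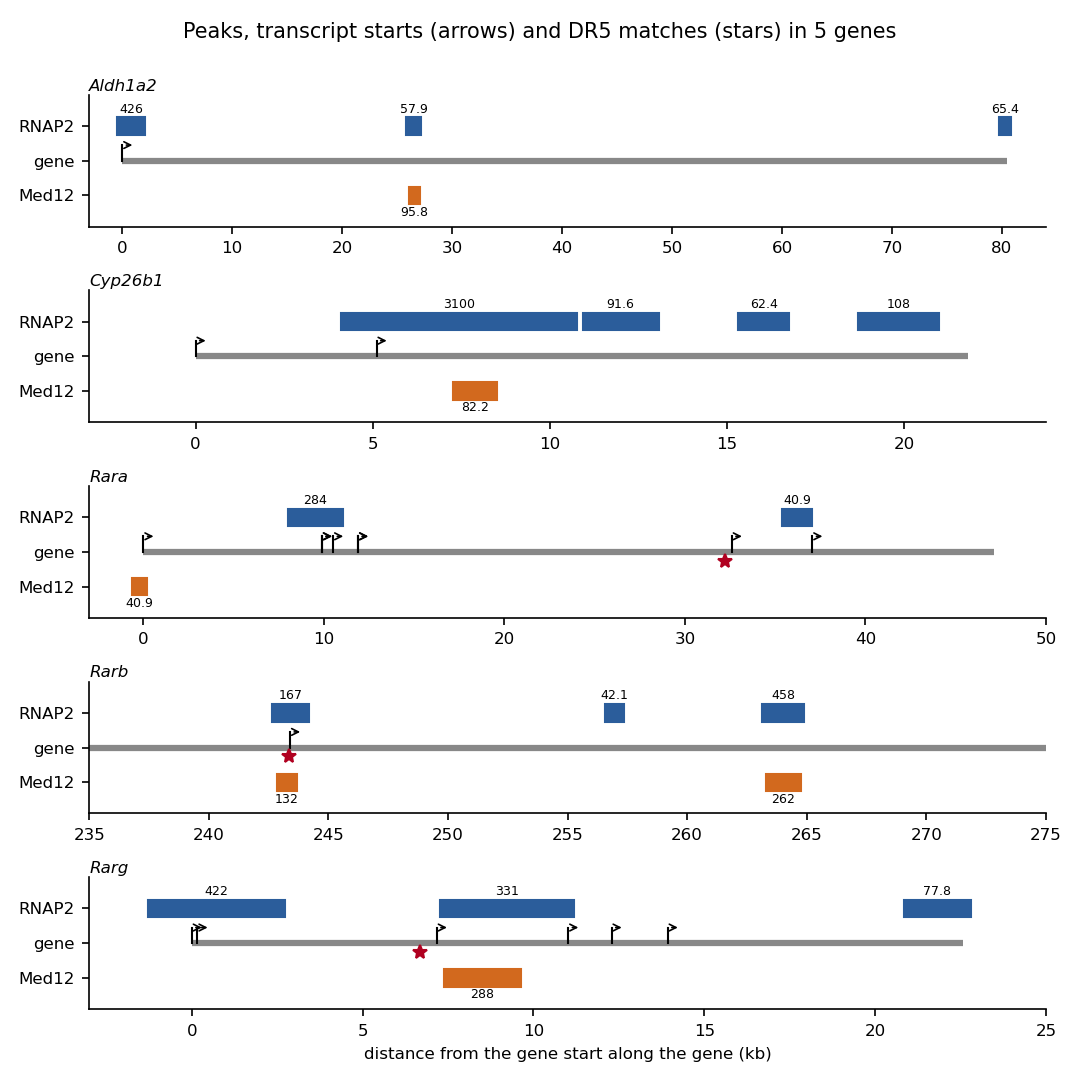
RNAP2 peaks (blue bars), Med12 peaks (orange bars) with their scores, transcript starts (arrows) and DR5 matches (stars) against the distance from the gene start in kb, for Aldh1a2, Cyp26b1, Rara, the part of Rarb with the Rarb-202 start, and Rarg. Rarb is the gene where a match lies under both an RNAP2 peak of score 167 and a Med12 peak of score 132.

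The choice of start matters to how these genes are read. When only the 5′ end of the whole gene was taken, RNAP2 lay there in 3 of 9 genes, Aldh1a2, Crabp2 and Rarg, beside 40% of protein-coding genes. Med12 lay there in 1 of 9, Rara, beside 8.2%. In Cyp26b1, Rara and Rarb, RNAP2 was at a start inside the gene. Ordered by the highest RNAP2 score at a start, Cyp26b1 came before Aldh1a2 at 426, Rarg at 422, Crabp2 at 338, Rara at 284 and Rarb at 167. With 1 library, neighbours in this order cannot be separated from each other.

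RNAP2 reached beyond the start in several of the genes. A peak lay within 1 kb of the 3′ end in 4 of 9 genes, Aldh1a2, Cyp26b1, Rarb and Rarg, beside 7.54% of protein-coding genes, a count that was chosen after the values were seen. All 4 also had RNAP2 at a start, a combination found in 6.08% of protein-coding genes. In Cyp26b1 the peak closest to the 3′ end was 833 bp away. In Rarb the peak at the 3′ end had a low score of 46.5 and also lay in Top2b, so it cannot be assigned to Rarb alone. RNAP2 peaks covered at least 10% of the gene in 4 of 9, Cyp26b1, Rarg, Crabp2 and Rara, beside 12.6%. In Crabp2, a gene of 4711 bp, the only RNAP2 peak was the one at its start, and Rara just passed at 10.0%. The share covered depends on gene length and does not by itself show RNAP2 beyond the start. The share covered was 5.28% in Aldh1a2, which was the median of the 9 genes. Over all protein-coding genes the mean was 5.33%, and the median was 0 because only 45.3% had an RNAP2 peak in the gene. An RNAP2 peak lay in the gene in 6 of 9, beside 45.3%, and a Med12 peak in 5 of 9, beside 16.6%. These backgrounds were not matched for gene length.

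A site was called shared and away from starts when RNAP2 and Med12 overlapped there and it lay over 1 kb from every annotated start. Such a site was present in the windows of 3 of 9 genes, namely the Aldh1a2 intron site, the site downstream of Crabp2 and the Rarb intron site, beside 12.8% of protein-coding genes. The Rarb site is centred 264007 bp from the 5′ end of the gene. It counted because the window of this long gene was 488 kb, beside 200 kb for the others of the 9. The background was not matched for gene length. A Med12 peak of any kind was in 6 of 9 windows, beside 54.7%, a share near the background. The Cyp26b1 and Rarg overlaps were not counted as shared sites away from starts, because their RNAP2 peaks extend to a start.

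**Figure D4:**
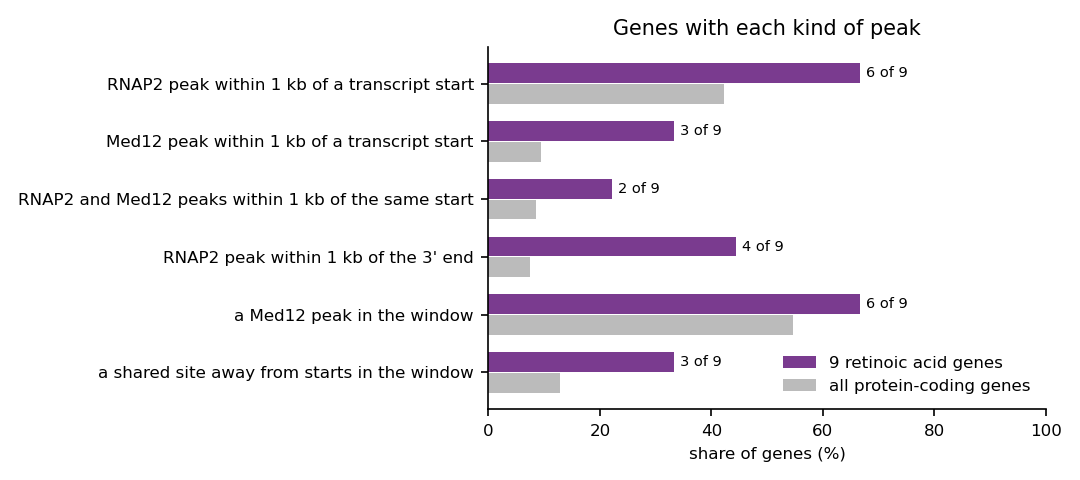
Share of genes in % with each kind of peak, for the 9 retinoic acid genes (purple, with the count of 9) and all 22367 protein-coding genes (grey). The purple bar is longer for the 6 kinds drawn, from 6 of 9 beside 54.7% for a Med12 peak in the window to 4 of 9 beside 7.54% for RNAP2 at the 3′ end, whereas RNAP2 at the 5′ end of the whole gene, which is not drawn, was found in 3 of 9 beside 40%.

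DR5 matches lay near the starts of more of these genes than had a peak over a match. The windows held 16 distinct matches, of which 1 lay in an RNAP2 peak, and the same 1 lay in a Med12 peak. This is the Rarb-202 match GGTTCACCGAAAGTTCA (chr14:17408027-17408043), whose centre is 49 bp before the start. In Cyp26a1, the match at chr19:37772266-37772282 is 24 bp before the start and had no peak of either list. Matches also lay 396 bp before the Rara-004 start and 479 bp before the Rarg-003 start, the latter 577 bp outside the nearest RNAP2 peak. A match within 1 kb of a start was thus found in 4 of 9 genes, beside 1.19% of protein-coding genes. These genes include well-studied targets of the receptors, and this count was chosen after the positions were seen. The Rarb-202 match, the only match under a peak, and the Rarg-003 match both use the further variant GGTTCA. Without that variant neither would be found, and the search was not repeated with other sets of words.

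Over the whole lists, 0.439% of RNAP2 peaks and 0.357% of Med12 peaks held a DR5 match. In the 300 bases at the peak centre, where the Rarb match also lay in both peaks, the shares were 0.0928% and 0.103%. Among the 45962 promoters of protein-coding transcripts (250 bases before to 50 bases after the start), 33 held a match, or 0.0718%. RNAP2 was within 1 kb of 3 of these 33, those of Jmjd6, Rarb and Fam176b, beside 41.5% of all promoters. Med12 was within 1 kb of 1 of the 33, that of Rarb, beside 8.49%. A match is a description of the letters and not of binding by a receptor, which was not measured.

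A wider list of 24 genes of the retinoic acid pathway was read in the same way. RNAP2 lay at a start in 16 of 24, Med12 in 7 of 24 and both at the same start in 5 of 24, beside 42.2%, 9.37% and 8.45% of all protein-coding genes. The smaller groups that follow are read against the same shares. Of the 8 genes for the supply and oxidation of retinol, 3 had RNAP2 and 2 had Med12. The latter were Rdh10, which makes the retinaldehyde that Aldh1a2 uses, with scores of 699 for RNAP2 and 95.6 for Med12, and Dhrs3, which turns retinaldehyde back into retinol, with 912 and 78.6. The other synthesis genes Aldh1a1 and Aldh1a3 had no peak at a start. All 3 retinoid X receptor genes had RNAP2, and Rxrb also had Med12, with scores of 2429 and 60.5. All 6 coregulator genes had RNAP2. The corepressor gene Ncor1 (718 and 46.4) and Nrip1 (495 and 64.4), whose product can restrain ligand-bound receptors, also had Med12. Fabp5, a lipid carrier, had RNAP2 alone. Among genes known to respond to retinoic acid, Meis1 and Meis2 had RNAP2 at a start and Med12 at another start.

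The tissue label was set beside marker genes in the same peak lists. The marker genes were chosen with earlier results of these data known, so they are not an independent check. Over all protein-coding genes, 42.2% had RNAP2 at a start. All 4 markers of distal limb mesenchyme had RNAP2 at a start, with scores of 1726 for Hoxa13, 1855 for Hoxd13, 3100 for Msx1 and 1973 for Prrx1, and Prrx1 also had Med12 at 220. RNAP2 lay at a start of 0 of 4 ectoderm markers, 0 of 3 blood markers, 0 of 2 neural crest and glia markers, 1 of 3 endothelium markers (Kdr, 148) and 1 of 3 muscle markers (Pax3, 283). The part of these other cells in the peaks of the 9 genes was not tested.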

How the data were processed

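Formaldehyde-fixed distal forelimb chromatin was sequenced after immunoprecipitation with RNAP2 or Med12 antibodies, 1 library each. Reads were aligned to mm9 with Bowtie and peaks were called with MACS 1.4.1, per the submitters' processing notes and the study's methods. The authors deposited 1 peak list per antibody with a score in its last column, the negative log10 of the p-value multiplied by 10. Redundant reads were filtered out before calling. Whether the input served as the control was not given in the sources used here. The lists carry no depth, and they reach down to a score of 40, below the 50 that the stated p-value threshold gives.

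Starts were converted to 1-based coordinates. Peaks were joined to GENCODE vM1 genes (mm9) with Python 3.11.15, numpy 2.4.6 and scipy 1.17.1, and sequences were read from the mm9 genome with pysam 0.24.0. Share aligned elsewhere came from blastn 2.17.0 (95% identity, at least 50 bp, low-complexity sequence masked). Repetition was the best share of bases equal to the base 2 to 60 bp further, in 200-base stretches. The same code was tested on simulated peaks. Described were all 9 genes and Exoc6, every peak at their starts and in their spans, the highest peak of each window, every shared site away from starts, and pathway and marker genes by counts with values for those with both peaks at a start. Values outside that rule, such as the peaks of other genes near Crabp1, were added after they were seen. The 9 genes and the gene lists were chosen with earlier results of these data known. The counts at 3′ ends, the repeat measure and DR5 matches near starts were added after values were seen. Other score minimums, windows, overlaps, start intervals, start sets and motif spacers were tried. A gene and a sequence are not reported here. No test was made, since each antibody has 1 library.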

Additional observations from a re-analysis of the deposited data

How the results depend on the processing

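No paired analysis was possible because RNAP2 and Med12 were each measured once, so no replicate could be left out either. Under 10 alternative settings, 60 values were recomputed from 15 results, of which 41 stayed within the margin set for them and 19 moved. All are counts or medians of counts, so a change of sign could not occur. With a score of at least 50, the pathway genes with Med12 at a start fell from 7 to 4. With a score of at least 100, they fell to 0, Med12 peaks in the windows fell from 11 to 4, overlapping RNAP2 peaks and overlapping Med12 peaks from 8 to 4 each, and shared sites away from starts from 3 to 1. Under that minimum the median number of RNAP2 peaks per window was 2 for the 9 genes (from 4) and 1 for all genes (from 2), and the median number of Med12 peaks was 0 in both (from 1). With windows of 50 kb, the medians over all genes were 1 RNAP2 peak and 0 Med12 peaks. With the gene span alone, 17 RNAP2 and 6 Med12 peaks remained, 5 of each overlapped the other list, and the median of RNAP2 peaks was 2 for the 9 genes and 0 for all genes, and that of Med12 peaks over all genes was 0. RNAP2 lay at a start in 6 of 9 genes under each alternative tried. Med12 did in 2 with a score of at least 50 or 100, which leaves out Rara, in 2 with protein-coding starts alone, which leaves out Rarg, and in 4 with a start interval of 5 kb, which adds Cyp26b1. Neither depth nor input signal was in the lists, and a missing peak for Cyp26a1, Cyp26c1 or Crabp1 is not shown to be missing RNAP2.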

Other observations

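Among the peaks of neighbouring genes in the Rarg window, both lists met at the start of Aaas, with scores of 390 for RNAP2 and 49.5 for Med12. In the Rara window, RNAP2 lay at the starts of Wipf2 and Cdc6, with scores of 252 and 120, and at starts of Top2a, with scores of 303 and 48.2. The overlap at Hdgf in the Crabp2 window and that at Aaas are the only overlaps in the windows at a start of a gene outside the 9. Hdgf and Aaas were named after their values were seen.

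Base composition differed between the shared stretches of 200 bases. GC content was 66.5% downstream of Crabp2, 55.0% in Rarg, 49.0% in the Rarb intron and 38.0% in the Aldh1a2 intron. The ratio of observed to expected CpG was 0.557 downstream of Crabp2, against 0.277 in the Aldh1a2 intron, 0.168 in the Rarb intron and 0.0707 in Rarg. Whole peaks, which are longer than these stretches, had a median ratio of 0.373 in the RNAP2 list and 0.217 in the Med12 list. The whole RNAP2 and Med12 peaks at these sites had ratios of 0.478 and 0.325 in Rarg and 0.465 and 0.463 downstream of Crabp2. They had 0.244 and 0.275 in the Aldh1a2 intron and 0.189 and 0.199 in the Rarb intron.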
